A study of Homo sapiens with 7 samples.

Results

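The immediate-early and ERK feedback genes of HCT116 cells are described here, from their transcription rate (TR) through mRNA abundance (RA) to translation activity (TA). They were chosen by name, as 41 symbols known from growth-factor responses, among the 20072 gene symbols listed for the study. The rule used no measured value, but the list was drawn up with earlier results of these data known. HCT116 is an established human colorectal carcinoma line. The cells were unmodified and in exponential growth, all of 1 line, in a serum-free medium supplemented with epidermal growth factor, insulin and transferrin, and no group is described as starved or stimulated. TR came from 2 GRO-seq libraries, which capture RNA still held by engaged polymerases, RA from 3 RNA-seq libraries of purified mRNA, and TA from 2 libraries of mRNA in polysomes, which carry several ribosomes each. The cells for TA were incubated with cycloheximide, an inhibitor of ribosome movement, before lysis, and no such incubation is stated for the other assays. All values were RPKM (reads scaled by exon length and by library size), which compare genes per length within a library.

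Immediate-early genes are transcribed within minutes of a growth signal without new protein synthesis, because the factors that switch them on, such as SRF with its ternary complex partners, are already present and are activated by ERK phosphorylation. Many of their mRNAs carry AU-rich elements in the 3′ UTR, bound by proteins such as ZFP36, and are degraded quickly, so that the response is brief. The same pathway induces its own inhibitors, the DUSP phosphatases that dephosphorylate MAP kinases and the Sprouty proteins that act upstream of ERK. Cycloheximide itself is known to raise the mRNA of several of these genes, and in these data its action and translation cannot be told apart in any comparison of TA with RA.

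AU-rich stretches of 6 members are shown because these genes run from the lowest RA relative to TR to an RA close to TR. Each is a window of 30 bases from the annotated 3′ UTR, read 5′ to 3′ along the mRNA from the GRCh37 (hg19) genome and written with T for U. Capitals mark the pentamer ATTTA. The longer motif TTATTTATT, called the nonamer here, contains the pentamer and therefore overlaps it.
FOS, chr14:75748760-75748789, plus strand: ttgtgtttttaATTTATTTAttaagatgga
FOSB, chr19:45977134-45977163, plus strand: tcctgctggagtgATTTAtactgtgaaatg
ZFP36, chr19:39899828-39899857, plus strand: cctttATTTAtgacgactttATTTAttcta
DUSP1, chr5:172195644-172195673, minus strand: ggctggtccttATTTATTTAacttcacccg
PIM1, chr6:37142762-37142791, plus strand: gttatgtATTTATTTATTTATTTAtttggt
SRF, chr6:43146961-43146990, plus strand: gatggcaccacttATTTAttgttgcctttt
The windows of FOS, ZFP36, DUSP1, PIM1 and SRF contain the nonamer, and that of FOSB contains the pentamer alone. In PIM1, which encodes a serine/threonine kinase, 4 pentamers followed each other, sharing their end bases. The stability indices of these genes, given with their roles below, ran from -2.73 for FOSB to 0.01 for SRF.

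The totals behind the RPKM values were recovered as 3391897 and 5629982 reads for TR, between 20299018 and 22532134 for RA, and 22421062 and 30805391 for TA. At least 99.7% of each total lay on listed genes. These are therefore reads counted in exons, and the sequencing depth is not known. The GRO-seq libraries had the fewest counted reads. The least covered member, SPRY2, rested on 30 reads in TR replicate 1 and on 116 in TR replicate 2. In RA and TA every member had at least 150 reads. Such counts cover counting error only. All 6 epithelial markers examined were present, with EPCAM at 61.3 ± 15.5 RPKM (SD, n = 2) in TR, 209.9 ± 25.1 RPKM (n = 3) in RA and 431 ± 0.0576 RPKM (n = 2) in TA. PTPRC and PECAM1, which mark leukocytes and endothelium, were at or below 0.437 RPKM in every library. COL1A1, a fibroblast collagen, was present at 17.6 ± 1.74 RPKM in TR, 11.5 ± 1.99 RPKM in RA and 3.96 ± 0.901 RPKM in TA, and its part in the results was not tested. The libraries are of bulk cells, so that fewer cells expressing a gene and less RNA per cell cannot be told apart. The study calls its replicates biological, but neither the labels nor the methods say whether they came from separate cultures. If they did not, the p-values measure only technical spread. It also describes log-phase cells as divided among the 3 assays, without saying which numbered libraries shared a division.

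Most of the 41 genes were highly transcribed in these cells. Their median was 89.6 RPKM in TR, 43.5 RPKM in RA and 31.5 RPKM in TA, against medians of 14.2, 8.94 and 6.34 RPKM over the 14305 genes tested, those whose mean reached 1 RPKM in some parameter. All 41 genes reached 1 RPKM in all 3 parameters, as did 10825 of the tested genes, which are called expressed throughout. Above the 90th percentile of tested genes stood 25 of the 41 in TR, 16 in RA and 16 in TA. The median member stood at percentile 97.0 of TR, 87.0 of RA and 82.1 of TA.

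**Figure D1:**
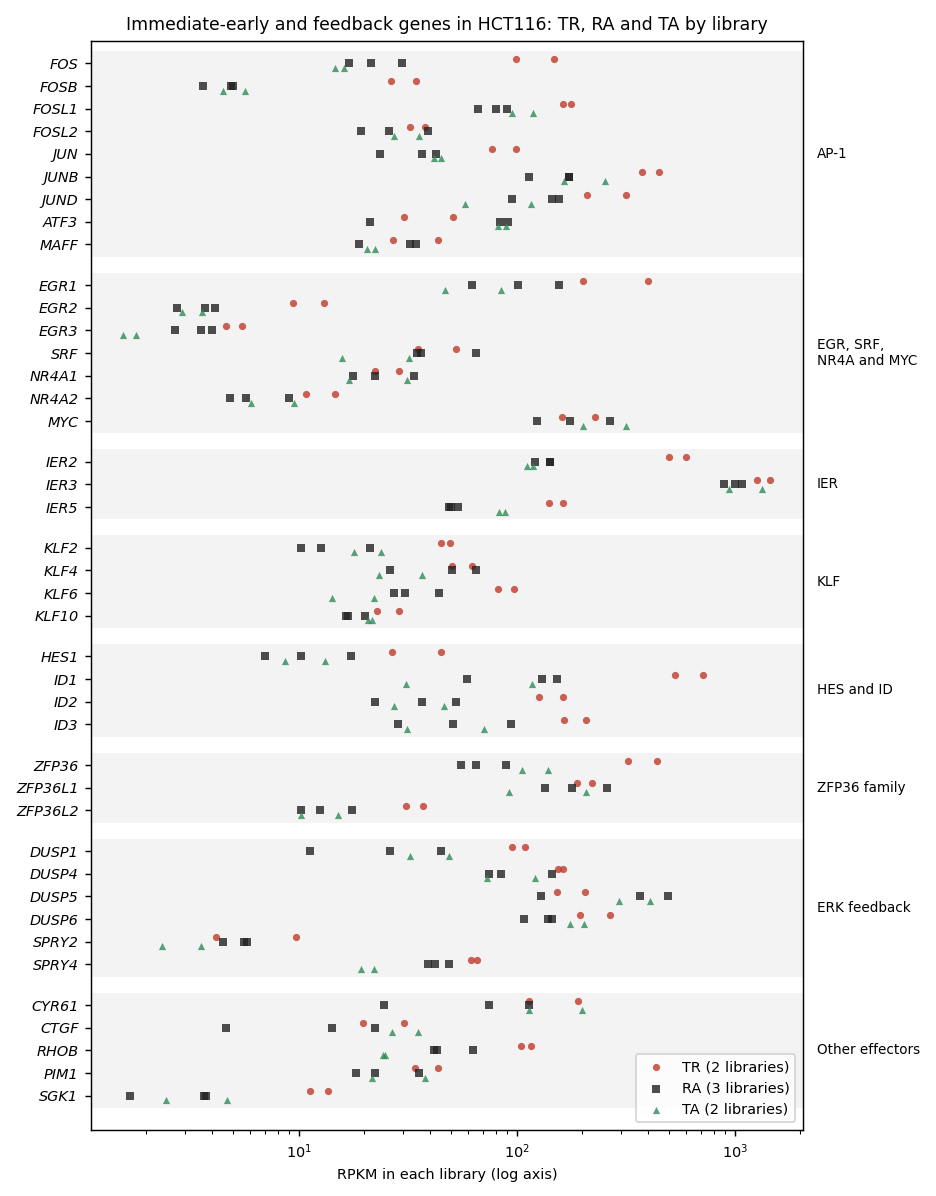
RPKM of the 41 genes in each of the 7 libraries on a log axis, with circles for TR, squares for RA and triangles for TA, grouped by role. The TR circles of 29 genes lie wholly to the right of their RA squares, and IER3 lies farthest to the right in all 3 parameters.

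IER3, a stress-inducible regulator of survival, was the most abundant member in all parameters. It had 1265 and 1455 RPKM in TR, 1005, 896 and 1079.5 RPKM in RA and 944 and 1325 RPKM in TA. TR was above RA in every pair of libraries, while 1 TA library lay within the range of RA and the other above it. Annotated antisense transcripts overlapped 38.9% of the exon bases of IER3, and without a stated strand setting their reads cannot be told apart. Such shares are of all annotated exon bases of a gene, which can differ from the exons counted for RPKM. At the other end, EGR3, a zinc-finger factor, had the lowest TR with 4.65 and 5.52 RPKM, and SGK1, a kinase induced by serum and glucocorticoids, the lowest RA with 3.74, 1.68 and 3.68 RPKM. Besides EGR3 and SGK1, the members under the median of all tested genes were EGR2, NR4A2 and SPRY2 in TR, FOSB, EGR2, NR4A2 and SPRY2 in RA, and FOSB, EGR2 and SPRY2 in TA.

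Stability was compared through the stability index, log2(RA/TR), which the study treats as an operational estimate of mRNA stability. It is the ratio of 2 assays and no measured half-life. Of the 41 genes, 25 had RA below TR and 0 had RA above TR (limma with Benjamini-Hochberg adjustment, adjusted p under 0.05), and 16 did not pass. At an unadjusted p under 0.05, limma also placed 0 above, and 26 below. The share below was 61.0%, while 48.0% of all tested genes were called below and 19.2% above. Among the 10825 genes expressed throughout, fitted on their own, 33.8% were below and 24.3% above. The median index was −1.11 over the members, −0.58 over all tested genes and −0.17 over the genes expressed throughout. Every TR library was above every RA library in 29 of the 41 genes, against 54.9% of all tested genes, and the reverse held in 0 of the 41, against 24.3%.

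The share of genes called below was higher among short genes. Of the tested genes that span at most 10000 bases, 65.7% had RA below TR, with a median index of −1.66, and 22 of the 31 members of that span did (71.0%), with a median of −1.39. Of the genes of that span that were expressed throughout, 49.8% were below with a median of −0.65, and the same 31 members were among them. Of the genes above the 90th percentile of TR, 48.5% were below with a median of −0.56, close to the values over all tested genes, and 18 of the 25 members there were (72.0%), with a median of −1.39. For short genes above that percentile the shares were 55.1% of 787 genes and 17 of 22 members (77.3%). The part of gene span in the members' index was not tested.

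Left-out libraries and the scaling changed the count. Without TR replicate 2, in which all 41 genes were higher than in TR replicate 1, 14 genes were called below, against 37.9% of all tested genes, and 11 of the 25 were lost, namely JUND, EGR1, NR4A2, KLF10, HES1, ID1, ID3, DUSP1, DUSP6, SPRY4 and SGK1. The count was 20 without TR replicate 1 (JUND, NR4A2, ID1, ID3 and DUSP1 lost), 24 without RA replicate 1 (NR4A2 lost), 22 without RA replicate 2 (JUND, NR4A2 and KLF10 lost) and 27 without RA replicate 3 (KLF10 and SPRY4 lost, DUSP4, CYR61, CTGF and PIM1 gained). Of all tested genes 48.7%, 46.7% and 44.4% were called below without RA replicates 1, 2 and 3. Without TR replicate 1 the median index was −1.29 over the members and −0.61 over all tested genes. When each library was centred on its median, the median index of all tested genes moved from −0.58 to 0.09, and 16 members were then below and 1, DUSP5, above, against 33.7% and 35.4% of all tested genes. The calls lost by centring were those of FOSL1, JUND, EGR1, NR4A2, KLF10, ID3, DUSP6, SPRY4 and RHOB. The values that follow are from the uncentred fit.

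**Figure D2:**
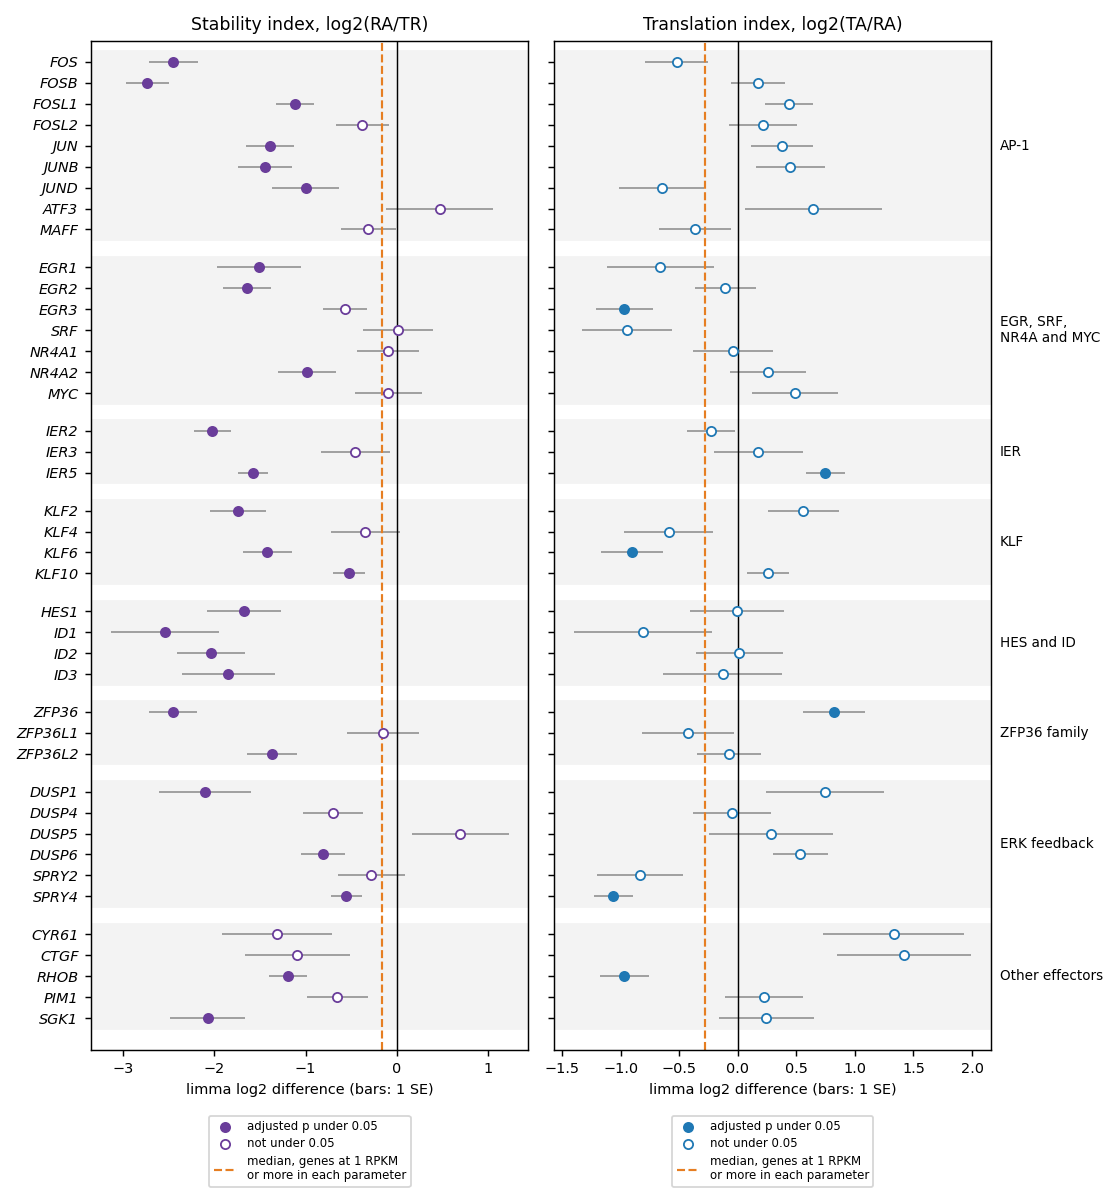
Stability index (left) and translation index (right) of the 41 genes as limma log2 differences with bars of 1 SE, filled where the adjusted p was under 0.05. The dashed line marks the median of the genes expressed throughout, and 25 points on the left and 6 on the right are filled.

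AP-1, the dimeric factor of FOS, JUN and related proteins that binds growth-responsive promoters, gave 6 of 9 members with RA below TR, and 0 above (limma, also 0 at an unadjusted p under 0.05). Of all tested genes 48.0% were called below and 19.2% above, and 65.7% of those spanning at most 10000 bases were below. Each count by role stands beside these shares. FOS, on chromosome 14 (chr14:75745529-75748933, plus strand), had 99.5 and 148 RPKM in TR, 21.3, 29.8 and 17.0 RPKM in RA and 14.7 and 16.1 RPKM in TA. Every TR library was above every RA library, and every RA library above every TA library. TR was 5.46-fold RA, an index of -2.45 (SE 0.27, limma adjusted p = 8.81e-05). FOSB, the close relative of FOS, had 26.5 and 34.4 RPKM in TR, 3.65, 4.90 and 4.97 RPKM in RA and 4.48 and 5.67 RPKM in TA. Its index was the lowest of the 41 genes, -2.73 (SE 0.23, limma adjusted p = 2.02e-05), and it stood at percentile 79.2 of TR but at percentile 35.1 of RA. JUN, the usual partner of FOS, is encoded by 1 exon and had 76.8 and 99.3 RPKM in TR, 23.6, 42.5 and 36.8 RPKM in RA and 41.6 and 44.9 RPKM in TA. Its TR and RA libraries did not overlap, and the index was -1.39 (SE 0.26, limma adjusted p = 0.00187).

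The other called AP-1 genes were JUNB (-1.44 ± 0.30, index ± SE), FOSL1 (-1.11 ± 0.21) and JUND (−0.998 ± 0.36). The gene HOOK2, on the opposite strand, overlapped 14.2% of the exon bases of JUNB. FOSL2 (-0.38 ± 0.29) and MAFF (-0.31 ± 0.30) did not pass the test, nor did ATF3 (0.47 ± 0.59), a stress-induced bZIP factor whose index was the highest of the group. The RA libraries of ATF3 had 21.3, 90.9 and 84.2 RPKM around its TR of 30.4 and 51.2. RA replicate 1 lay below both TR values and the other RA replicates lay above them. Without RA replicate 1, ATF3 and DUSP5 were called above.

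The EGR factors, zinc-finger proteins whose induction is a classical readout of ERK, had 2 of 3 members with RA below TR, against 48.0% of all tested genes. EGR1, on chromosome 5 (chr5:137801168-137804992, plus strand), had 202 and 398 RPKM in TR, 156, 62.5 and 101 RPKM in RA and 46.8 and 84.4 RPKM in TA. The TR libraries lay above the RA libraries although the replicates of each assay were far apart, and TR was 2.85-fold RA with an index of -1.51 (SE 0.45, limma adjusted p = 0.0183). This call was lost without TR replicate 2 (index −1.02, limma adjusted p = 0.213) and with centred libraries (−0.84, limma adjusted p = 0.116). EGR2 was transcribed at a far lower level, with 9.46 and 13.0 RPKM in TR, 4.15, 2.76 and 3.72 RPKM in RA and 2.91 and 3.60 RPKM in TA, and its index of -1.64 (SE 0.26, limma adjusted p = 7.28e-04) passed. EGR3 had 4.65 and 5.52 RPKM in TR and 2.71, 3.56 and 4.01 RPKM in RA, an index of -0.57 (SE 0.25, limma adjusted p = 0.0710).

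Among the 31 of the 41 genes with a promoter entry, EGR1 and SRF held a CArG box, the motif bound by SRF, in the window searched. These stretches are shown because SRF controls immediate-early genes, its own gene included. Promoters were 250 bases before to 50 after the start in RefSeq (GRCh38.p14), searched on both strands. Sites farther upstream were not searched, so a member without a match may still hold one. Each line gives 30 bases, with the motif in capitals.
EGR1, chr5:138465364-138465393, plus strand, 105 bases before the start: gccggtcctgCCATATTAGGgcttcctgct
EGR1, chr5:138465386-138465415, plus strand, 83 bases before the start: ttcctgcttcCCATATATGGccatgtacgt
SRF, chr6:43171229-43171258, plus strand, 30 bases before the start: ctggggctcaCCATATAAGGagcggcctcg
SRF, chr6:43171249-43171278, plus strand, 10 bases before the start: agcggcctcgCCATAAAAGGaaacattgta
Each of these promoters held a pair of boxes. A CArG box was found in 1.29% of the 27305 promoters of the table. The cAMP-response motif TGACGTCA was in the promoters of JUND, MAFF and DUSP1, against 1.98% of all promoters, and the AP-1 motif TGACTCA in that of FOSL2, against 4.92%. A match describes letters in a window, and binding was not measured here.

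SRF itself had 35.2 and 52.9 RPKM in TR, 35.0, 36.2 and 65.3 RPKM in RA and 15.8 and 32.1 RPKM in TA. The TR and RA libraries overlapped and the index was 0.01 (SE 0.38, limma adjusted p = 0.976). MYC, the growth-promoting bHLH factor, had 161 and 229 RPKM in TR, 124, 175 and 268 RPKM in RA and 201 and 317 RPKM in TA. All 3 assays overlapped, and its index was -0.09 (SE 0.37, limma adjusted p = 0.837), which became positive without TR replicate 2 (0.16), without RA replicate 1 (0.17) and with centred libraries (0.58), never past the threshold. Of the orphan nuclear receptors, NR4A2 was below (-0.98 ± 0.32) and NR4A1 was -0.09 ± 0.34, not past the threshold. An annotated antisense transcript overlapped 10.3% of the exon bases of NR4A1.

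IER2 and IER5, small growth-induced nuclear proteins, both had RA below TR, as did 48.0% of all tested genes. IER2 had 501 and 597 RPKM in TR, 142, 142 and 121 RPKM in RA and 112 and 118 RPKM in TA. TR was 4.06-fold RA, with an index of -2.02 (SE 0.20, limma adjusted p = 5.51e-05), and every TR library was above every RA library. Annotated antisense transcripts overlapped 52.2% of the 3079 annotated exon bases of IER2, against a counted exon length of 2046 bases, so its values may include their reads. IER5, of 1 exon, had 140.2 and 163 RPKM in TR, 48.7, 50.2 and 53.8 RPKM in RA and 82.7 and 87.9 RPKM in TA. Its 3 assays did not overlap, with TR highest and TA between TR and RA, and its stability index was -1.57 (SE 0.17, limma adjusted p = 6.93e-05). IER3 was not called (-0.45 ± 0.38).

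Of the KLF zinc-finger factors, KLF2, KLF6 and KLF10 had RA below TR, and KLF4 (-0.35 ± 0.38), a factor of epithelial differentiation, did not pass. The share below was 48.0% over all tested genes. KLF2 had 44.7 and 49.5 RPKM in TR, 21.2, 10.2 and 12.7 RPKM in RA and 17.9 and 23.9 RPKM in TA. TR was 3.34-fold RA and the index was -1.74 (SE 0.30, limma adjusted p = 0.00119). KLF6 had 81.8 and 97.5 RPKM in TR, 30.8, 27.5 and 43.9 RPKM in RA and 14.2 and 22.2 RPKM in TA, lower at each step with no overlap between assays, and its stability index was -1.42 (SE 0.27, limma adjusted p = 0.00178). KLF10, induced by TGF-β, gave the least negative of these indices, -0.52 ± 0.18.

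HES1, a Notch-responsive repressor, and the ID proteins, which block bHLH factors and follow BMP signals, formed the group with the lowest median index, −1.94, and all 4 had RA below TR. All tested genes gave 48.0% below. All 4 span at most 10000 bases, where 65.7% of tested genes were below with a median of −1.66. The group median was −2.13 without TR replicate 1 and −1.76 without TR replicate 2. With centred libraries 3 of the 4 were below, against 33.7% of all tested genes. ID1, on chromosome 20 (chr20:30193086-30194318, plus strand), had 529.6 and 717 RPKM in TR, 130.3, 59.2 and 154 RPKM in RA and 30.9 and 118 RPKM in TA. Every TR library exceeded every RA library, by 5.82-fold in the fit, although RA and TA varied between replicates, and the index was -2.54 (SE 0.59, limma adjusted p = 0.00538). The call was lost when either TR library was left out (limma adjusted p = 0.0534 and 0.0898). ID2 had 127 and 163 RPKM in TR, 52.9, 22.4 and 36.7 RPKM in RA and 27.2 and 46.2 RPKM in TA, with an index of -2.03 (SE 0.37, limma adjusted p = 0.00158). ID3 (-1.85 ± 0.51) and HES1 (-1.67 ± 0.40) completed the group, and both lost their calls without TR replicate 2.

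ZFP36, also called tristetraprolin, binds AU-rich elements and promotes deadenylation, and its own mRNA carries such an element. It lies on chromosome 19 (chr19:39897487-39900052, plus strand) and had 323 and 437 RPKM in TR, 55.7, 65.3 and 88.8 RPKM in RA and 106 and 139 RPKM in TA. TR was 5.47-fold RA, with an index of -2.45 (SE 0.27, limma adjusted p = 8.22e-05), equal to that of FOS within their errors. No TA library overlapped RA or TR. ZFP36L2 had 30.9 and 37.3 RPKM in TR, 12.5, 10.3 and 17.6 RPKM in RA and 10.2 and 15.1 RPKM in TA and an index of -1.37 (SE 0.27, limma adjusted p = 0.00240), with an antisense transcript over 22.4% of its exon bases. ZFP36L1, the third of the family, had 189 and 222 RPKM in TR and 179.9, 135 and 259.8 RPKM in RA, which overlapped, and its index of -0.15 ± 0.39 did not pass.

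The ERK feedback genes were divided, with 3 of 6 called below, a share near the 48.0% of all tested genes. DUSP1, a nuclear phosphatase of p38, JNK and ERK, had 95.6 and 109 RPKM in TR, 11.2, 44.9 and 26.3 RPKM in RA and 48.7 and 32.4 RPKM in TA. TR was 4.30-fold RA and above it in every library, with an index of -2.11 (SE 0.50, limma adjusted p = 0.00615), but the RA replicates spanned 4.0-fold and the call was lost when either TR library was left out (limma adjusted p = 0.0665 and 0.0896). DUSP6, the cytoplasmic ERK phosphatase, had 194 and 266 RPKM in TR, 139, 108 and 145 RPKM in RA and 175 and 202 RPKM in TA. TR was above RA and TA above RA without overlap, and the stability index was -0.81 (SE 0.24, limma adjusted p = 0.0163), not past the threshold without TR replicate 2 (−0.58, limma adjusted p = 0.113) or with centred libraries (−0.14, limma adjusted p = 0.614). An antisense transcript overlapped 28.6% of its exon bases. SPRY4, a Sprouty inhibitor of receptor tyrosine kinase signalling, was the third called below, with -0.55 ± 0.17. DUSP4 (-0.70 ± 0.33) and SPRY2 (-0.28 ± 0.37) did not pass.

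DUSP5, a nuclear phosphatase specific for ERK, had the highest stability index of the 41 genes. It had 153 and 206 RPKM in TR, 129, 495 and 368 RPKM in RA and 410.3 and 296 RPKM in TA. RA replicate 1 lay below both TR libraries and the others above both, and the index of 0.69 (SE 0.53, limma adjusted p = 0.276) did not pass. DUSP5 is also 1 of the 3 members without an ATTTA pentamer in the 3′ UTR. IER2 (-2.02) and HES1 (-1.67), which lack it too, were both called below.

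Among the 5 other effectors, RHOB and SGK1 had RA below TR, against 48.0% of all tested genes. RHOB, a small GTPase of 1 exon that is induced by growth factors and damage, had 105 and 116 RPKM in TR, 43.1, 62.7 and 41.8 RPKM in RA and 24.8 and 24.4 RPKM in TA. The 3 assays did not overlap, each below the previous, and the stability index was -1.19 (SE 0.21, limma adjusted p = 0.00129). This call was lost with centred libraries (−0.52, limma adjusted p = 0.0669). SGK1 had 11.2 and 13.6 RPKM in TR, 3.74, 1.68 and 3.68 RPKM in RA and 2.46 and 4.67 RPKM in TA, and its index of -2.07 (SE 0.41, limma adjusted p = 0.00226) was lost without TR replicate 2 (limma adjusted p = 0.0514). CYR61 (-1.31 ± 0.60) and CTGF (-1.09 ± 0.57), the secreted matricellular proteins driven by YAP and SRF, and PIM1 (-0.65 ± 0.33) did not pass. An annotated antisense transcript overlapped 11.9% of the exon bases of CTGF.

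Translation was compared through the translation index, log2(TA/RA). It shares the RA libraries with the stability index, so the 2 are not independent. Of the 41 genes, 2 (IER5 and ZFP36) had TA above RA and 4 (EGR3, KLF6, SPRY4 and RHOB) had TA below RA, and 35 did not pass (limma, Benjamini-Hochberg). These were 4.88% and 9.76% of the members, against 6.66% and 29.2% of all tested genes, and 8.87% and 29.8% of those expressed throughout. At an unadjusted p under 0.05 the limma counts were 3 and 5, with CTGF and SRF added. The median index was 0.01 over the members, −0.37 over all tested genes and −0.28 over the genes expressed throughout. With centred libraries the all-gene median moved from −0.37 to 0.13, and 10 members were then above and 0 below, against 19.0% and 9.81% of all genes, with limma counts of 15 and 1 at an unadjusted p under 0.05. Without TA replicate 1 or without TA replicate 2, 0 members were above (limma, with 2 and 1 at an unadjusted p under 0.05).

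The 2 genes with TA above RA both had RA well below TR. IER5, whose values stand above, had 1.68-fold more TA than RA, an index of 0.75 (SE 0.17, limma adjusted p = 0.0124), and this call was lost without TA replicate 1 (limma adjusted p = 0.0604) or TA replicate 2 (limma adjusted p = 0.0635). ZFP36 had 1.77-fold more, an index of 0.82 (SE 0.27, limma adjusted p = 0.0448), a call that was lost in 10 of 14 alternatives, among them those without any 1 library other than RA replicate 3, and its limma adjusted p over them ran from 0.00910 to 0.220. The TA libraries of FOSL1, KLF10, DUSP6 and CTGF also lay wholly above their RA libraries, which brought the number of such members to 6, against 14.4% of all tested genes. Of these, DUSP6 had a translation index of 0.53 (SE 0.24, limma adjusted p = 0.113) and CTGF one of 1.42 (SE 0.57, limma adjusted p = 0.0875).

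The 4 genes with TA below RA came from 4 roles. SPRY4 had 61.6 and 65.7 RPKM in TR, 42.2, 49.1 and 39.3 RPKM in RA and 22.1 and 19.3 RPKM in TA, so that RA was 2.09-fold TA with no overlap and an index of -1.06 (SE 0.17, limma adjusted p = 0.00432), the lowest of the 41. RHOB gave -0.97 (SE 0.21, limma adjusted p = 0.0114), with RA 1.96-fold TA, and was lost without TA replicate 1 (limma adjusted p = 0.0640) or TA replicate 2 (limma adjusted p = 0.0520). EGR3 had 1.57 and 1.79 RPKM in TA, RA being 1.96-fold higher, and gave -0.97 (SE 0.25, limma adjusted p = 0.0195), lost without RA replicate 3 (limma adjusted p = 0.0651), TA replicate 1 (0.108) or TA replicate 2 (0.0568). KLF6 gave -0.90 (SE 0.27, limma adjusted p = 0.0323), which was lost in 8 of 14 alternatives, those without TR replicate 1, TR replicate 2, RA replicate 3 or TA replicate 1 included (limma adjusted p from 0.0809 to 0.218). SPRY4 was lost in 1, the centred libraries (−0.56, limma adjusted p = 0.0502). The TA of FOS, SRF, IER2 and SPRY2 also lay wholly below their RA, 8 members in all against 43.8% of tested genes. FOS had a translation index of -0.52 (SE 0.27, limma adjusted p = 0.164), JUN one of 0.38 (SE 0.26, limma adjusted p = 0.297), EGR1 one of -0.66 (SE 0.45, limma adjusted p = 0.287) and MYC one of 0.49 (SE 0.37, limma adjusted p = 0.334).

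By role, 0 of 9 AP-1 genes and 0 of 4 HES and ID genes passed in either direction of the translation index (limma, also 0 at an unadjusted p under 0.05), against 6.66% above and 29.2% below of all tested genes. With centred libraries 3 of the AP-1 genes (FOSL1, JUN and JUNB) were above, and 5 at an unadjusted p under 0.05. The role medians ran from −0.17 for the KLF genes to 0.24 for the other effectors. ATF3 (0.64 ± 0.59), CYR61 (1.33 ± 0.60) and DUSP1 (0.74 ± 0.50) had positive values with wide errors, and their RA replicates were far apart, as given further on.

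The members varied more between replicates than most expressed genes. The median SD of log2 values between replicates of an assay was 0.26 in TR, 0.47 in RA and 0.39 in TA, against 0.14, 0.24 and 0.20 over the genes expressed throughout. In TR, all 41 genes were higher in replicate 2, the library with more counted reads, than in replicate 1. Of all tested genes 54.7% were, as were 50.7% of those expressed throughout and 61.1% of those above the 90th percentile of TR. Of the genes spanning at most 10000 bases, 65.9% were. The median difference was 0.36 log2 units over the members and 0.04 over all tested genes. It was largest in SPRY2, with 4.19 and 9.76 RPKM, and in EGR1, with 202 and 398 RPKM. The rise was not confined to the members. Of the further growth-factor-induced genes described at the end, all but EREG were also higher in TR replicate 2. In TA, 35 of the 41 were higher in replicate 2, against 49.3% of all tested genes and 51.6% of those expressed throughout. ID1 differed most, with 30.9 and 118 RPKM, and JUND, SRF, ID3 and ZFP36L1 were also over 1 log2 unit apart, 5 members against 5.04% of the genes expressed throughout.

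**Figure D3:**
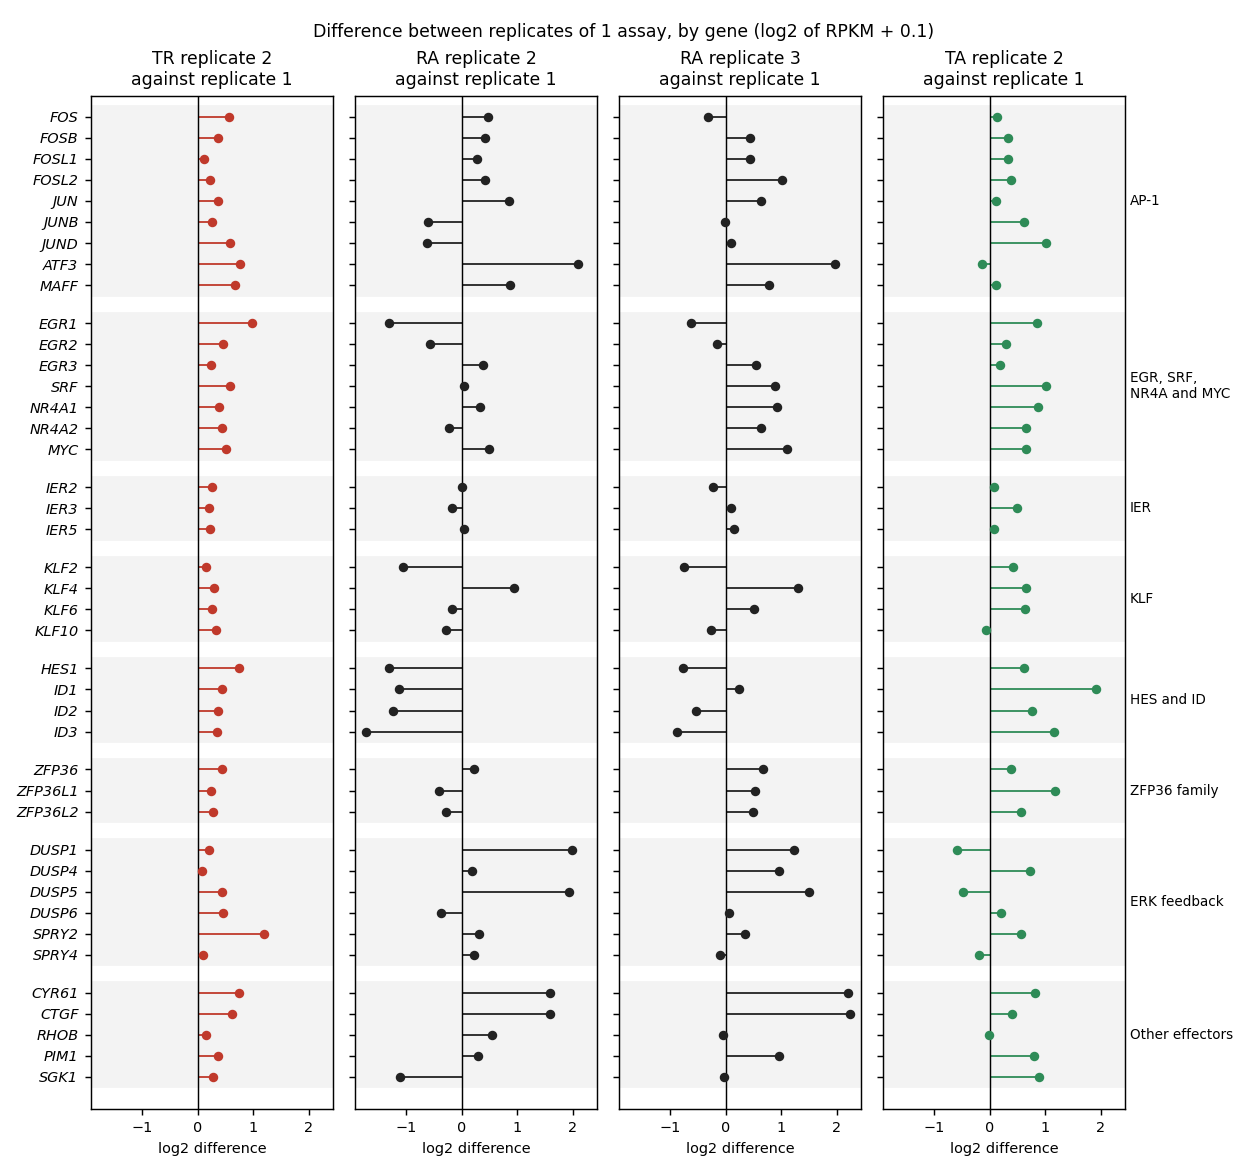
Log2 difference of each of the 41 genes between replicates of 1 assay, in 4 panels for TR, RA (replicates 2 and 3, each against replicate 1) and TA. All 41 points lie to the right of 0 in the TR panel. The panel of RA replicate 2 holds genes over 1 log2 unit out on both sides, and that of RA replicate 3 only on the right.

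In RA the disagreement took 2 directions. Replicates 1 and 2 were over 1 log2 unit apart in 12 of the 41 genes, against 12.5% of all tested genes and 11.1% of those expressed throughout. Replicate 1 was the lowest of the RA libraries in 20 of the 41 and the highest in 10, against 36.0% and 40.8% of all tested genes. In replicate 2, ATF3, DUSP1, DUSP5, CYR61 and CTGF were higher and EGR1, KLF2, HES1, ID1, ID2, ID3 and SGK1 were lower. These genes are named after their values were seen. CYR61 had 24.7, 74.9 and 114 RPKM and CTGF had 4.65, 14.3 and 22.4 RPKM in RA replicates 1 to 3, so that replicate 1 stood 4.62-fold and 4.81-fold under replicate 3. ID3 showed the opposite, with 94.1, 28.4 and 51.0 RPKM. ID3 had its highest value where CYR61 and CTGF had their lowest. ATF3, DUSP1, DUSP5, CYR61 and CTGF were also over 1 log2 unit higher in replicate 3 than in replicate 1. The genes low in replicate 2 include all members of the HES and ID group. Of the further growth-factor-induced genes, PPP1R15A (29.9, 159 and 70.6 RPKM) and GADD45B (17.8, 58.8 and 57.2 RPKM) were also lowest in RA replicate 1. EREG, IER5L and MCL1 were highest there. The cause of these differences between RA replicates was not tested.

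Gene structure was shared by most members, although the list was not chosen on it. In the canonical transcripts of GENCODE, 33 of 41 genes had at most 4 exons (80.5%), against 22.0% of the 13672 tested genes with an annotated 3′ UTR, and 31 spanned at most 10000 bases (75.6%), against 21.5%. JUN, JUNB, JUND, IER5 and RHOB had 1 exon, 12.2% of members against 2.71%. The median span was 5617 bases against 29090, while the median 3′ UTR of 1220 bases was close to the 1182.5 of all genes. SGK1, with 148865 bases and 14 exons, was the longest.

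AU-rich motifs are part of what the list was named for, so their number is a description. At least 1 ATTTA stood in the 3′ UTR of 38 of the 41 genes (92.7%), against 69.3%, the exceptions being IER2, HES1 and DUSP5. The nonamer stood in 11 (26.8%), against 8.65%, namely FOS, FOSL2, MAFF, SRF, IER5, ZFP36, ZFP36L1, ZFP36L2, DUSP1, DUSP4 and PIM1. The median was 2.42 pentamers per 1000 bases against 1.53. IER5 had the most, 10. The annotated 3′ UTRs of IER5, FOSL2 and KLF2, of 3014, 4869 and 1654 bases, exceed their counted exon lengths of 2342, 3991 and 1649 bases. Some of their motifs may therefore lie outside the counted exons. The nonamer windows of IER5 and FOSL2 start at bases 2562 and 3900 of the 3′ UTR.

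**Figure D4:**
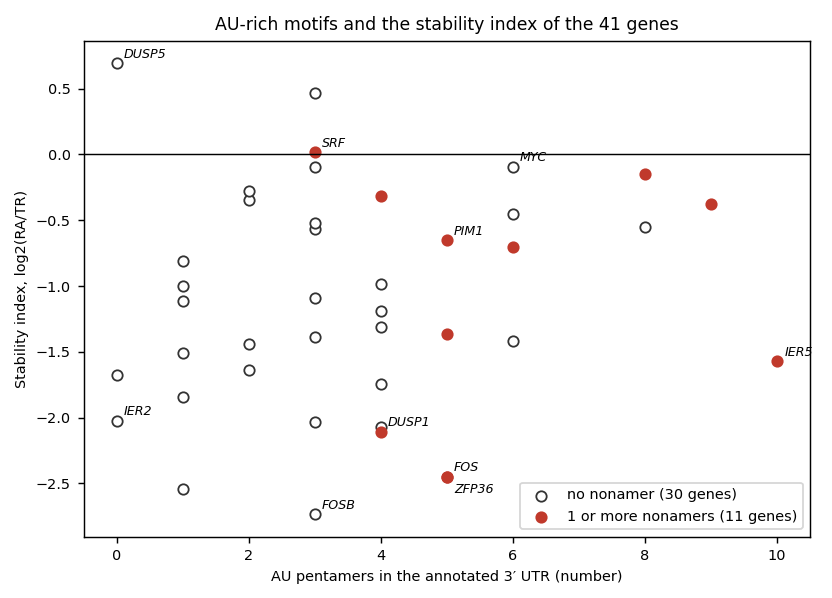
Stability index of the 41 genes (vertical axis) against the number of ATTTA pentamers in the annotated 3′ UTR (horizontal axis), filled where the nonamer is present. FOS and ZFP36 with 5 pentamers lie near −2.45, IER2 with 0 at −2.02, and SRF with a nonamer at 0.01.

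The stability index was also read by nonamer content of the annotated 3′ UTR, although the nonamers of IER5 and FOSL2 may lie outside the counted exons. It had a median of −0.70 over the 11 genes with the nonamer, of which 5 had RA below TR (45.5%), and of −1.15 over the 30 without, of which 20 did (66.7%). The order of these shares turned with centred libraries (5 of 11 and 11 of 30) and without TR replicate 2 (4 of 11 and 10 of 30). Over all tested genes the medians were −0.41 for 1182 genes with it and −0.55 for 12490 without, with 41.5% and 47.2% below. Both IER2, without a pentamer, and FOS, with 5, had RA below TR in every library. PIM1, whose 3 nonamers overlap, had TR of 38.8 ± 6.82 RPKM (n = 2) and RA of 25.4 ± 9.01 RPKM (n = 3), with a TR replicate inside the range of RA.

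Genes that act before and beside these genes in the pathway were read in the same way. Of 20 genes of the ERK cascade, from the receptor EGFR to ERK and its nuclear targets, 10 had RA above TR and 2 below, against 19.2% and 48.0% of all tested genes, with a median index of 0.46. TA was below RA in 14 and above in 0 (limma, also 0 above at an unadjusted p under 0.05), against 29.2% and 6.66%, with a median of −1.01. With centred libraries 15 were above and 1 below in the stability index, and 1 above and 8 below in the translation index, against 35.4%, 33.7%, 19.0% and 9.81% of all tested genes. EGFR itself was 0.12 in the stability index (limma adjusted p = 0.764). MAPK3, encoding ERK1, had 13.5 ± 1.99 RPKM in TR (SD, n = 2) and 33.7 ± 7.80 RPKM in RA (n = 3), an index of 1.29, limma adjusted p = 0.00172. ARAF and BRAF were those with RA below TR.

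**Figure D5:**
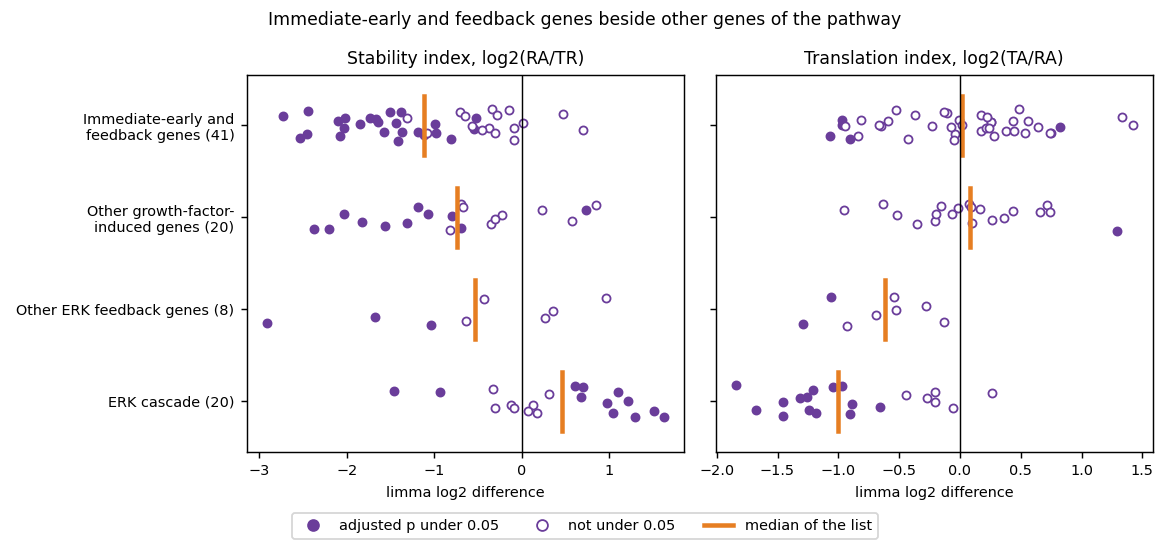
Stability index (left) and translation index (right) of each gene in 4 lists, filled where the adjusted p was under 0.05, with the list median as a bar. The medians of the stability index are −1.11, −0.75, −0.54 and 0.46 from the 41 genes down to the ERK cascade.

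Further growth-factor-induced genes, 20 in number, had 10 with RA below TR and 1 above, a share below near the 48.0% of all tested genes, with a median of −0.75. The count below was 6 without TR replicate 1, 2 without TR replicate 2 and 5 with centred libraries. With centred libraries 33.7% of all tested genes were below. The list median was −0.87 without TR replicate 1 and −0.63 without TR replicate 2, against −0.61 and −0.57 over all tested genes. TA was above RA in 1 of these 20 genes, against 6.66% of all tested genes, with a median translation index of 0.08. AREG, EREG and HBEGF, among them, encode ligands of EGFR. AREG had 23.1 ± 8.84 RPKM in TR (n = 2) and 5.58 ± 2.08 RPKM in RA (n = 3, -2.04, limma adjusted p = 0.00182), while EREG (0.57, limma adjusted p = 0.230) and HBEGF (-0.31, limma adjusted p = 0.548) did not pass. PLAUR, the urokinase receptor, was the gene above in both indices. Of 8 further ERK feedback genes, 3 had RA below TR (SPRY1, DUSP2 and PHLDA1) and 0 above (limma, 2 at an unadjusted p under 0.05), against 48.0% and 19.2% of all tested genes. The counts were 1 below and 3 above with centred libraries, and 1 below without TR replicate 2. Centring placed 33.7% of all tested genes below and 35.4% above. Without TR replicate 2 the median index was −0.46 over these 8 genes and −0.57 over all tested genes. SPRED1 and SPRED2 had TA below RA, against 29.2% of all tested genes. DUSP2 had the lowest value of these lists, with 81.5 and 114 RPKM in TR and 13.9, 8.98 and 16.3 RPKM in RA (-2.91, limma adjusted p = 1.85e-04). These lists, like the 41 genes, were drawn from textbook knowledge with earlier results known, and nothing is called particular to any of them.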

How the data were processed

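RPKM of 7 HCT116 libraries (2 GRO-seq, 3 RNA-seq, 2 polysome profiling) were analysed. Per the labels and the study's methods, the authors mapped reads to hg19 with TopHat, counted exonic reads by HTSeq-count, and converted the counts to RPKM, which they deposited. CASAVA is also named in the submitters' processing notes. Versions, annotation, strand setting and counting mode are not given in the sources used here. Differences were tested with limma 3.58.1 (R 4.3.3, trended empirical Bayes) on log2(RPKM + 0.1), a scale that understates changes of low genes, in 1 fit of the 7 libraries, with Benjamini-Hochberg adjustment over the 14305 genes whose mean reached 1 RPKM in some parameter. Calls have an adjusted p under 0.05. Symbols without values (16) were left out. Library sizes and exon lengths were inferred from the RPKM values. With them 100% of values above 0 came out as whole reads within a tolerance of 0.001 reads. The lengths were chosen to make reads whole, so this share is no independent check. On simulated data, 4 of 4 library sizes were recovered, and the exon length of 95.9% of genes with at least 100 reads. In another simulation limma called 200 of 200 genes changed by 2 log2 units (RA against TR) and 11 of the unchanged ones among 14305 genes. It gave every gene and library equal noise, so it does not cover smaller changes or members whose replicates were far apart. Gene models came from GENCODE 44 on GRCh37, with 18772 symbols matched directly, 937 by an older symbol and 347 not at all. CYR61 and CTGF are CCN1 and CCN2 there. Genes described in full are FOS, JUN, EGR1, MYC, DUSP6 and ZFP36 and, in each role, up to 2 called members in each direction with the largest difference in each index. ATF3, DUSP5, CYR61, CTGF and ID3 were added after their values were seen. The members and lists were chosen with earlier results of these data known. Alternatives covered pseudocounts, filters, centring, a replicate block, the samples in the fit and left-out libraries.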

Additional observations from a re-analysis of the deposited data

How the results depend on the processing

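The counts and medians of the members, role groups and other lists, the split by nonamer and the indices of the genes described in full were recomputed with pseudocounts of 0.01 and 1, with no filter, with the genes expressed throughout, with libraries centred on their medians, with a replicate block, with the compared assays alone in the fit and without each library. Centring gave 1 gene above and 16 below in the stability index, with a median of −0.44, and 10 above and 0 below in the translation index, with a median of 0.51. It turned the stability index of MYC to 0.58. A pseudocount of 1, no filter and RA with TA alone each left 1 gene above in the translation index. The differences between replicates of an assay, the shares by span and by TR level and the sequence features were not recomputed. Replicate numbers are shared between assays, and the study describes cells divided among the assays, but not that equal numbers mark 1 division. The differences between replicates 1 and 2 correlated across 10825 genes at 0.149 between TR and RA, −0.562 between RA and TA and 0.020 between TR and TA. Replicate 3 exists in RA alone, so the replicate block takes RA replicate 3 out of both comparisons. Its medians equal those obtained without RA replicate 3. With the replicate block, 24 genes were below and 0 above in the stability index (19 shared with the 25, median −1.24), against 41.9% and 14.6% of tested genes. In the translation index 2 were above (CYR61 and CTGF) and 2 below, against 0.762% and 9.70%, with a median of 0.22. The block lost the stability calls of JUND, EGR1 (limma adjusted p = 0.0751), KLF10, ID3, DUSP6 (0.0535) and SPRY4 and the translation calls of IER5 (0.0693), ZFP36 (0.0540), EGR3 (0.0904) and KLF6 (0.120). It placed 8 of 11 genes with the nonamer and 16 of 30 without it below in the stability index, and 6 of the 20 ERK cascade genes below in the translation index. Leaving out 1 library gave 0 to 2 above and 14 to 27 below in the stability index, with medians from −1.29 to −0.94, and 0 to 3 above and 1 to 5 below in the translation index, with medians from −0.26 to 0.34. The stability index of MYC then ran from −0.38 to 0.17 and was positive without TR replicate 2 (0.16) and without RA replicate 1 (0.17). Where a lone TR or TA library remained, its spread was assumed to be like that of the other assays. The stability calls of FOS, FOSB, JUN, EGR2, IER2, IER5, KLF2, KLF6, ID2, ZFP36 and ZFP36L2 were kept in all 14 alternatives. For other changes the cause was not tested. Counted reads were fewest in TR, with 30 for SPRY2 in the smaller library.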
